A study of Mus musculus with 12 samples.

Results

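The 37 genes of the mouse mitochondrial genome, 13 mRNAs, 2 rRNAs and 22 tRNAs, were followed in RNA-seq libraries of oocytes with conditional mutations of a Polycomb repressive complex and of their controls. Members were all rows whose gene symbol starts with mt-, 37 of 55385 gene models in one table and 37 of 55401 in the other. The study compared 12 libraries, 2 per group in 6 groups. In the PRC2 table (8 libraries), control oocytes (EedF/+; Ddx4-Cre) and conditional knockout (cKO) oocytes (EedF/-; Ddx4-Cre) were non-growing at postnatal day 6 or growing at postnatal day 7, so stage and day differ together. In the PRC1 table (4 libraries), growing oocytes of postnatal day 7 were labelled Ring1-/-; Rnf2F/+; Ddx4-Cre for the control and Ring1-/-; Ring1F/-; Ddx4-Cre for the cKO. Both PRC1 groups thus carry the Ring1 deletion. The floxed allele of the cKO is written as Ring1 again, possibly in place of Rnf2. Rnf2 was not lower in the libraries labelled PRC1 cKO (87.75 and 61.42 TPM) than in their controls (59.19 and 53.81 TPM), and Ring1 was at most 0.02 TPM in all 4. A value over the whole gene does not show whether a floxed part is missing, so the deletion is not checked here and this group is known by its label alone. Ddx4-Cre recombines in germ cells, and all 4 PRC2 groups and both PRC1 groups carry it. Eed encodes a core subunit of PRC2, and Ring1 and Rnf2 encode the alternative ubiquitin ligases of PRC1. Whether replicate libraries came from different animals is not in the labels, so p-values measure only the spread between these libraries, which may be technical.

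The mitochondrial genome is a small circle present in many copies per cell. Its mRNAs encode core subunits of respiratory complexes I, III and IV and of the ATP synthase (complex V), its rRNAs build the mitochondrial ribosome, and its tRNAs translate the mRNAs. Both strands are transcribed as long precursors, which are cut at the tRNAs that punctuate them, and all other proteins of the system come from nuclear genes. Oocytes gather large numbers of mitochondria as they grow, and the embryo inherits them. Of the 37 genes, 12 mRNAs, 2 rRNAs and 14 tRNAs lie on the plus strand of the annotation, and mt-Nd6 and 8 tRNAs on the minus strand.

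Values are TPM, a length-normalised abundance scaled to sum to 1000000 in each library. TPM keep no depth, so a single value has no interval here, and the tables were scaled separately, so levels are compared within a table only. Changes are limma log2 fold changes of log2(TPM + 1), which understates the change of low genes, and a gene passed at a Benjamini-Hochberg adjusted p under 0.05 over all genes tested. Genes with at least 1 TPM in at least 2 libraries were tested. All 13 mRNAs, both rRNAs and none of the 22 tRNAs met this minimum in PRC2 libraries, 15 of 37 members. In PRC1 libraries 26 of 37 met it, 12 mRNAs (all but mt-Nd3), both rRNAs and 12 tRNAs. Eed stood at 60.45 to 90.47 TPM in PRC2 control libraries and at 9.64 to 12.08 TPM in PRC2 cKO libraries. Summed markers of oocytes reached 6704 to 21722 TPM in every library, against at most 39.23 TPM for markers of granulosa cells, the somatic cells around the oocyte.

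Near-identical nuclear copies of mitochondrial genes bear on what a mitochondrial row holds. A block on chromosome 1, chr1:24611535-24616197 (GRCm38, minus strand), carries 7 annotated models that match 7 mitochondrial mRNAs: Gm10925 (mt-Atp6), Gm28661 (mt-Co2), Gm28437 (mt-Co3), Gm10222 (mt-Nd4l), Gm28439 (mt-Nd4), Gm28438 (mt-Nd3) and Gm29216 (the 3′ end of mt-Co1). Of these models, 5 have no difference from the gene, over 294 (mt-Nd4l) to 876 bases (mt-Nd4). Gm28438 differs from mt-Nd3 by T3C over 345 bases, and Gm29216 from mt-Co1 by A1066T over 483 bases, with positions counted from 1 at the start of the mitochondrial transcript and the gene's base first. The start of mt-Nd3 (a complex I subunit, MT:9459-9806, GRCm38, plus strand) and of its copy (chr1:24612775-24613119, minus strand) are shown because the difference, in capitals, lies at the third base. Both are 5′ to 3′ from the GENCODE vM21 transcripts.
mt-Nd3: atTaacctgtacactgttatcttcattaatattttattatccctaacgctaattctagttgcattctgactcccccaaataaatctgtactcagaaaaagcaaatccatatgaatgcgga
Gm28438: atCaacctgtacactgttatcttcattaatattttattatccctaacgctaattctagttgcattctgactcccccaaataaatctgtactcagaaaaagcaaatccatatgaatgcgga

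The 6 copies other than Gm28439, which was listed at 0 in all 12 libraries, took a large and changing part of the TPM of a gene and its copy. mt-Atp6 held 17.8% to 28.7% of the sum with Gm10925 in the PRC2 libraries, and mt-Co3, a complex IV subunit, held 4.13% to 17.4% of the sum with Gm28437. In the same libraries mt-Nd4l held 0% to 61.9% of the sum with Gm10222, and mt-Nd3 0% to 60.2% of the sum with Gm28438. mt-Co2 held 66.7% to 82.0% there, and mt-Co1 77.2% to 80.9% with Gm29216 weighted by the share of the gene's length it covers. In the PRC1 libraries mt-Atp6 held 15.5% to 25.0%, mt-Co3 8.665% to 19.2% and mt-Nd4l 15.55% to 91.0%. mt-Nd3 held 0% to 9.99% in those, mt-Co2 42.4% to 62.7% and mt-Co1 75.6% to 82.2%. The levels of these 6 genes are therefore uncertain as listed, and the counts, tests and shares below are also given with the copies added, an alternative chosen after seeing the data. The way reads were divided between gene and copy was not given in the sources used here. Of the 16 models that matched a mitochondrial transcript with at least 90% identity over at least 50% of their length, these 6 alone reached 10 TPM in any library.

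**Figure D1:**
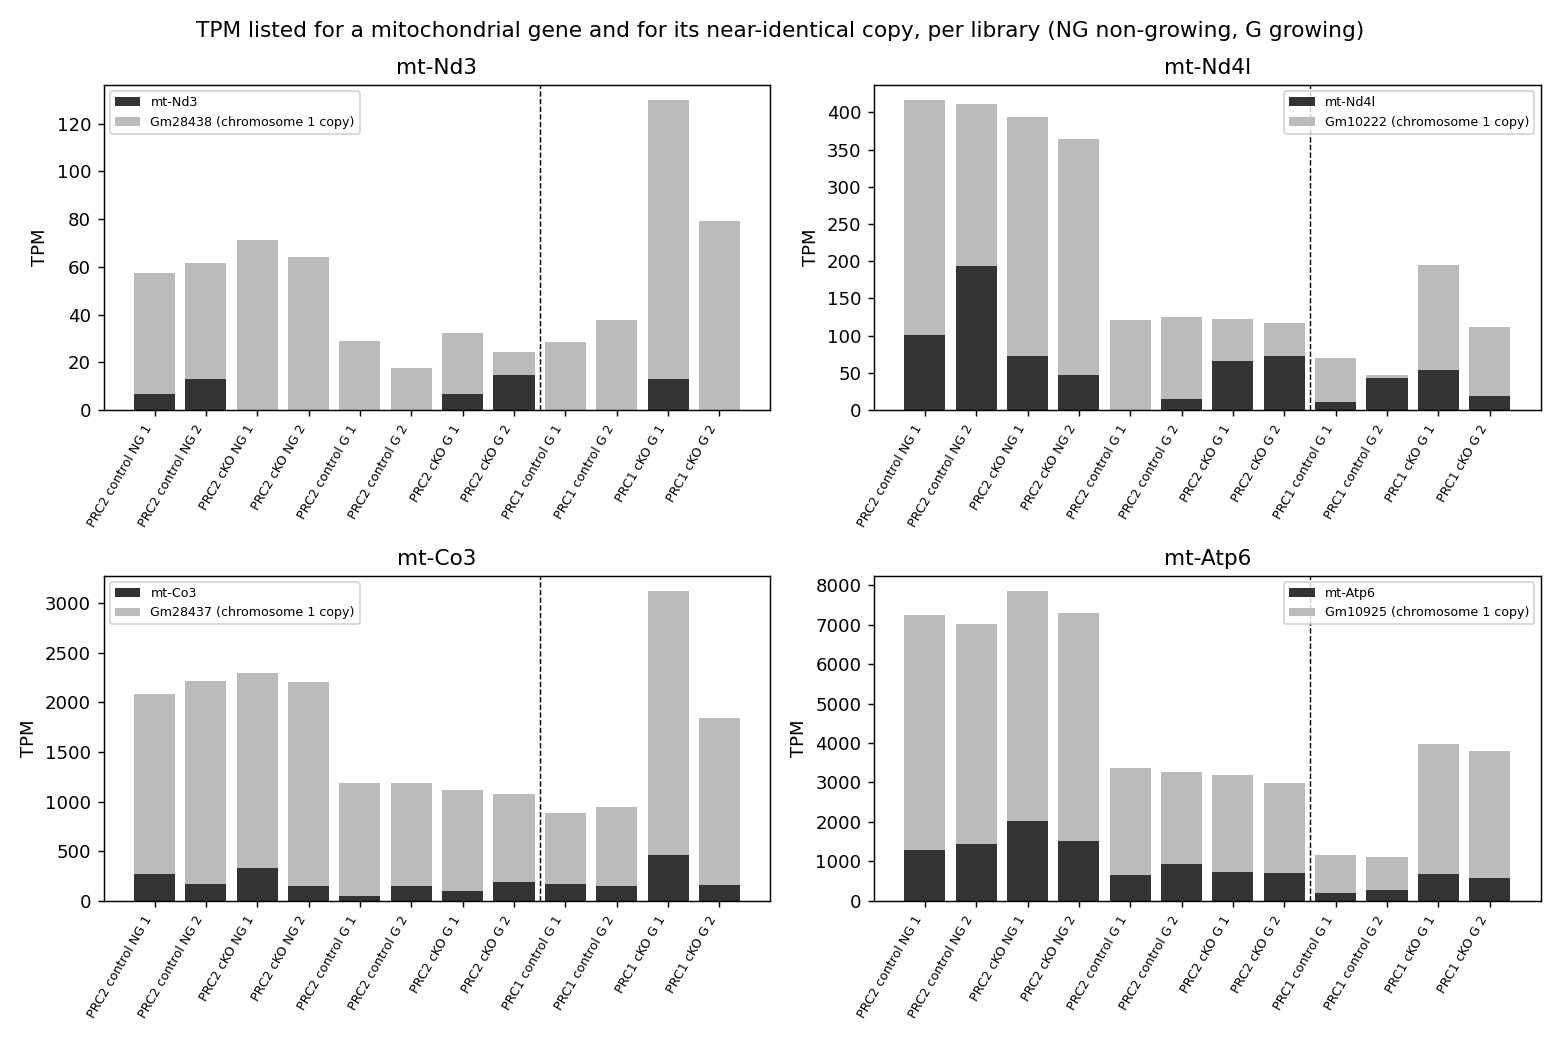
Stacked bars give the TPM listed for mt-Nd3, mt-Nd4l, mt-Co3 and mt-Atp6 (dark) and for the chromosome 1 copy of each (light) in the 12 libraries, with a dashed line between the separately scaled tables. The dark part of mt-Nd3 is 0 in 7 of 12 libraries while the whole bar is never below 17.7 TPM.

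Within the mRNAs, mt-Atp8, a small ATP synthase subunit, and mt-Cytb, cytochrome b of complex III, had the highest means in all 6 groups as listed. In PRC2 control non-growing oocytes mt-Atp8 stood at 7036 and 6536 TPM, the 3rd highest mean of 55385 models, and mt-Cytb at 5296 and 5182 TPM, the 7th. mt-Atp8 made up 37.5% ± 1.16 and mt-Cytb 29.0% ± 0.165 of the summed mRNA TPM there (SD, n = 2). mt-Co1, mt-Co2 and mt-Atp6 stood at 1092 to 1441 TPM in the 2 libraries, mt-Nd1 and mt-Nd4 at 507.53 to 883.72 TPM, and mt-Nd2, mt-Nd5 and mt-Nd6 at 184.51 to 223.89 TPM. mt-Co3 (169 to 273.44 TPM), mt-Nd4l (101.11 to 193.59 TPM) and mt-Nd3 (6.93 to 13.02 TPM) were the genes at the bottom of the order or with the widest spread. With the copies added the order differed: mt-Atp6 had the highest mean in all 6 groups, at 7135 ± 161.4 TPM in PRC2 control non-growing oocytes beside 6786 ± 353.3 TPM for mt-Atp8. mt-Co3 then stood at 2150 ± 89.0 TPM, mt-Nd4l at 413.6 ± 3.32 TPM and mt-Nd3 at 59.6 ± 2.86 TPM (SD, n = 2). mt-Rnr2, the large rRNA, stood at 670.17 and 704.55 TPM and mt-Rnr1, the small rRNA, at 150.84 and 143.07 TPM.

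mt-Atp8 overlaps mt-Atp6 by 43 bases on the same strand, the longest overlap among the 37 genes. Reads over these bases belong to both genes, so the transcript is shown with the shared bases in capitals (MT:7766-7969, plus strand). mt-Nd4l (MT:9877-10173, plus strand) shares its last 7 bases with mt-Nd4, and its last 60 bases are shown in the same way.
mt-Atp8: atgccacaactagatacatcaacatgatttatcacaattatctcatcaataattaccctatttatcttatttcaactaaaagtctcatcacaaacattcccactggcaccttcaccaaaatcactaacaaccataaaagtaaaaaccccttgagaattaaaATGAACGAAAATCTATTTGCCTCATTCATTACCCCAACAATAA
mt-Nd4l: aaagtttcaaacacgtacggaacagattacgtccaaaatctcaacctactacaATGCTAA

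**Figure D2:**
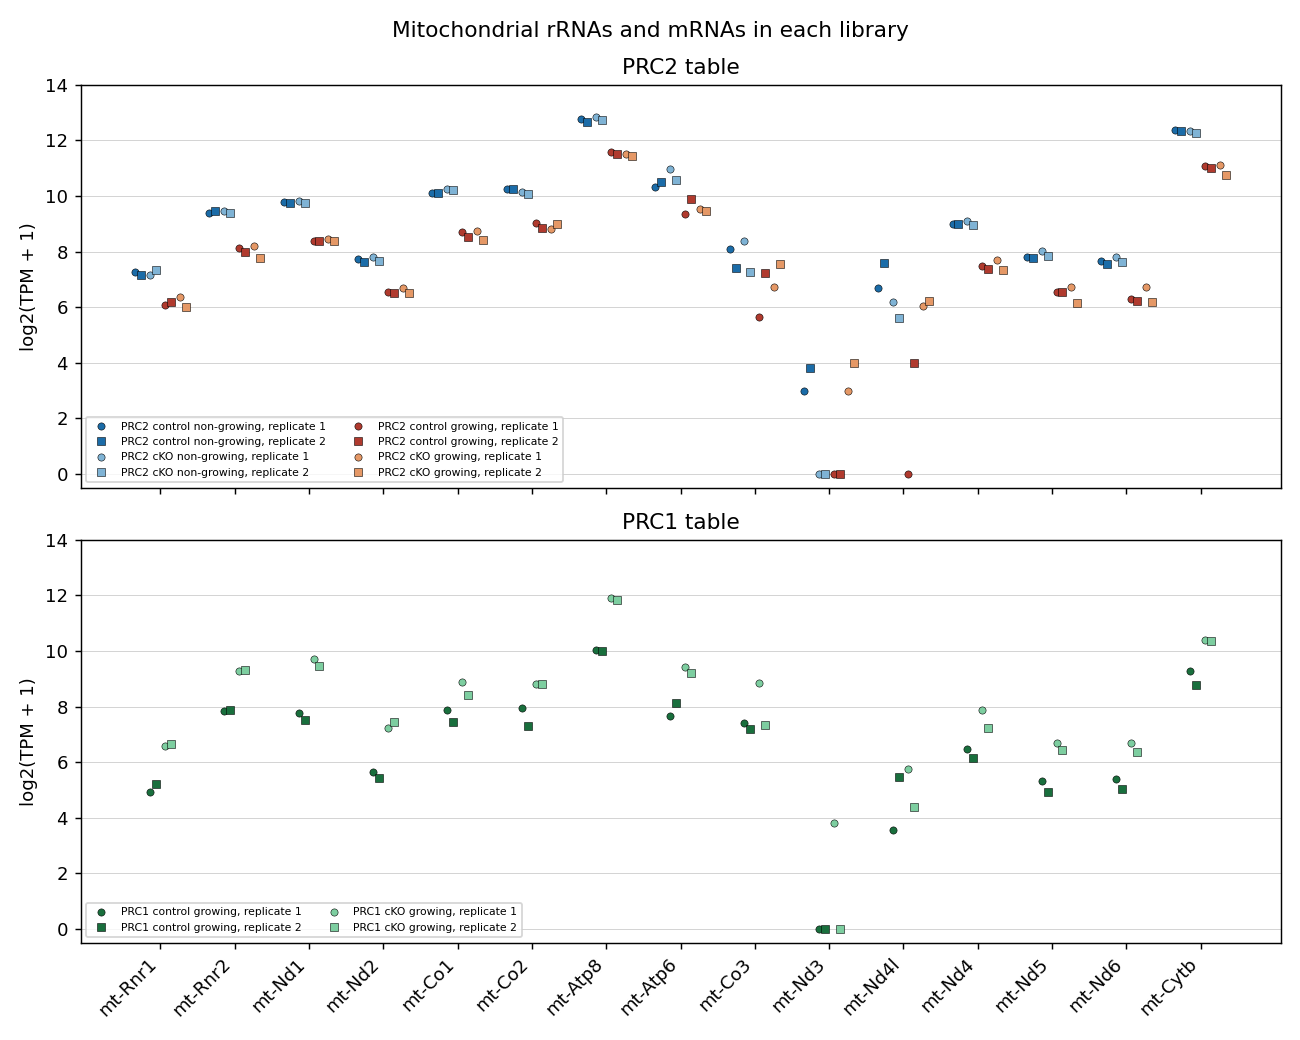
Points give log2(TPM + 1) of the 2 rRNAs and 13 mRNAs in each library, by group (colour) and replicate (circle 1, square 2), with the PRC2 table above and the PRC1 table below. Growing oocytes sit below non-growing ones for most genes of the PRC2 table, cKO above control for most genes of the PRC1 table, and mt-Co3, mt-Nd3 and mt-Nd4l scatter most.

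The effect of growth was compared first in PRC2 control oocytes. The mitochondrial mRNAs and rRNAs were lower in growing than in non-growing oocytes. Summed over the 13 mRNAs, the share of all TPM was 1.84% and 1.78% in the non-growing and 0.767% and 0.770% in the growing libraries. This is a ratio of 0.425 ± 0.00900 (SD from the 2 libraries of each group), or 0.438 ± 0.0161 with copies added, and the groups did not overlap. In this comparison 70.6% of all tested genes passed, 16.6% as higher and 54% as lower. Of the 15 members tested, 14 passed as lower, 12 mRNAs and both rRNAs, and none as higher. The median change of the 13 mRNAs was -1.31, beside -0.67 over all genes. In bulk libraries a lower share of cells with these RNAs and less RNA per cell cannot be told apart, and a lower TPM is a lower share, not a lower amount per oocyte.

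mt-Nd1, a complex I subunit with no copy in the chromosome 1 block, stood at 883.72 and 869.24 TPM in non-growing control oocytes. In growing control oocytes it stood at 333.1 and 333.09 TPM. Every growing library was below every non-growing one, and the change was -1.39 on the log2 scale (SE 0.07, limma adjusted p = 1e-05). mt-Cytb went from 5296 and 5182 TPM to 2164 and 2070 TPM, a change of -1.31 (SE 0.12, limma adjusted p = 8.8e-05). mt-Atp8 went from 7036 and 6536 TPM to 3088 and 2935 TPM, a change of -1.17 (SE 0.07, limma adjusted p = 2.2e-05). Both stood lower in the order of all models too, mt-Atp8 with the 33rd and mt-Cytb with the 45th highest mean in growing control oocytes. The 7 mRNAs without a chromosome 1 copy listed above 0 were mt-Nd1, mt-Nd2, mt-Nd4, mt-Nd5, mt-Nd6, mt-Cytb and mt-Atp8. They fell by 1.14 to 1.57 on the log2 scale. mt-Nd4 is among them because its copy Gm28439, which has no difference from it, was listed at 0.

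Among the 6 mRNAs with a chromosome 1 copy listed above 0, 5 passed. mt-Co1 changed by -1.49 and mt-Co2, another complex IV subunit, by -1.30, with limma adjusted p-values of 5.1e-05 and 4.3e-05. mt-Atp6, an ATP synthase subunit, had the smallest change, -0.80 (SE 0.20, limma adjusted p = 0.00943), and did not pass without control non-growing replicate 2. mt-Co3 did not pass. It stood at 273.44 and 169.04 TPM in non-growing and 49.15 and 150.04 TPM in growing libraries (log2 fold change -1.31, SE 0.61, limma adjusted p = 0.0921). mt-Nd4l stood at 101.11 and 193.59 TPM against 0 and 14.89 TPM, and mt-Nd3 at 6.93 and 13.02 TPM against 0 in both libraries. Both passed (limma adjusted p = 0.00553 and 0.000228), but a size cannot be given where libraries are listed at 0. With copies added, all 13 mRNAs passed as lower and the 6 genes changed by -0.85 to -1.74. The SE of mt-Nd4l went from 1.13 to 0.08 and that of mt-Co3 from 0.61 to 0.06.

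The rRNAs fell with the mRNAs. mt-Rnr2 stood at 670.17 and 704.55 TPM in non-growing and 279.66 and 250.97 TPM in growing control oocytes (log2 fold change -1.37, SE 0.14, limma adjusted p = 0.00013). mt-Rnr1 changed by -1.08 (SE 0.14, limma adjusted p = 0.000462). The summed rRNA share had a ratio of 0.401 ± 0.0215, beside 0.425 ± 0.00900 for the mRNAs (SD from the libraries).

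In PRC2 cKO oocytes, whose 4 libraries are other than those of the control but enter the cKO comparisons below, 66.1% of all tested genes passed with growth, 20.1% as higher and 46% as lower. Of the 15 members, 12 passed as lower and 1, mt-Nd3, as higher. The summed mRNA share was 1.95% and 1.77% in non-growing and 0.783% and 0.706% in growing cKO libraries, a ratio of 0.401 ± 0.0397, or 0.405 ± 0.0370 with copies added. The median change of the 13 mRNAs was -1.27, beside -0.45 over all genes. mt-Nd1 went from 910.69 and 866.21 TPM to 350.45 and 331.28 TPM, and mt-Cytb from 5197 and 4970 TPM to 2223 and 1714 TPM. The groups did not overlap for either gene. Their changes were -1.38 (SE 0.07, limma adjusted p = 9e-06) and -1.38 (SE 0.12, limma adjusted p = 6.8e-05). mt-Co3 and mt-Nd4l did not pass, at -0.68 (SE 0.61) and 0.23 (SE 1.13), and their limma adjusted p-values were 0.356 and 0.867. With copies added all 15 members passed as lower, mt-Nd3 included (log2 fold change -1.24, SE 0.23, limma adjusted p = 0.00294).

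Other shares moved with growth. Models of the biotype TEC, loci whose transcripts still await experimental proof, went from 2.53% ± 0.0657 to 24.0% ± 0.168 of all TPM in control oocytes (SD, n = 2), and nuclear protein-coding genes went from 86.2% ± 0.380 to 61.2% ± 0.510. Against nuclear protein-coding TPM alone, the ratio of the summed mRNA share was 0.599 ± 0.0156 in control and 0.566 ± 0.0792 in cKO oocytes. Trimmed-mean scaling moved the median of all genes from -0.67 to -0.07 in control oocytes and left 9 members lower and none higher, with a median of -0.54 for the mRNAs. mt-Nd2, mt-Nd5, mt-Nd6, mt-Atp6 and mt-Rnr1 no longer passed there. The split of all passing genes was 2346 higher and 7640 lower as listed, 4045 and 4115 under that scaling, 3520 and 5116 under quantile normalization and 3291 and 5476 when scaled to nuclear protein-coding genes. In cKO oocytes the split was 2844 higher and 6516 lower as listed, and 4231 and 4436, 3646 and 5371, and 4076 and 4576 under the same 3 scalings, with 12 members lower and mt-Nd3 higher in each. Summed granulosa markers were 3.83 to 4.28 TPM in non-growing and 8.96 to 9.77 TPM in growing control libraries, and 3.36 to 5.01 and 10.31 to 12.55 TPM in the cKO, with none of the 10 genes at 0 throughout. Summed stroma and theca markers (8 genes) were lower in growing oocytes, 2.87 to 3.23 against 0.59 to 1.08 TPM in control and 4.01 to 5.37 against 0.7 to 1.25 TPM in cKO libraries. Summed oocyte markers were 10610 to 10899 TPM in non-growing and 18895 to 19873 TPM in growing control libraries, and 6704 to 7192 and 15420 to 18574 TPM in the cKO. The genes of that sum did not all rise. In control libraries Zp3 went from 2256.05 and 2315.94 TPM to 6643.34 and 6173.78 TPM with growth, and Nlrp5 overlapped. Ddx4 fell from 177.23 and 179.91 TPM to 140.16 and 142.95 TPM, and Dazl from 290.66 and 298.47 TPM to 255.8 and 274.42 TPM. In cKO libraries Zp3 and Nlrp5 were higher in growing oocytes, Ddx4 was lower and Dazl overlapped. The part of these values in the result was not tested.

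**Figure D3:**
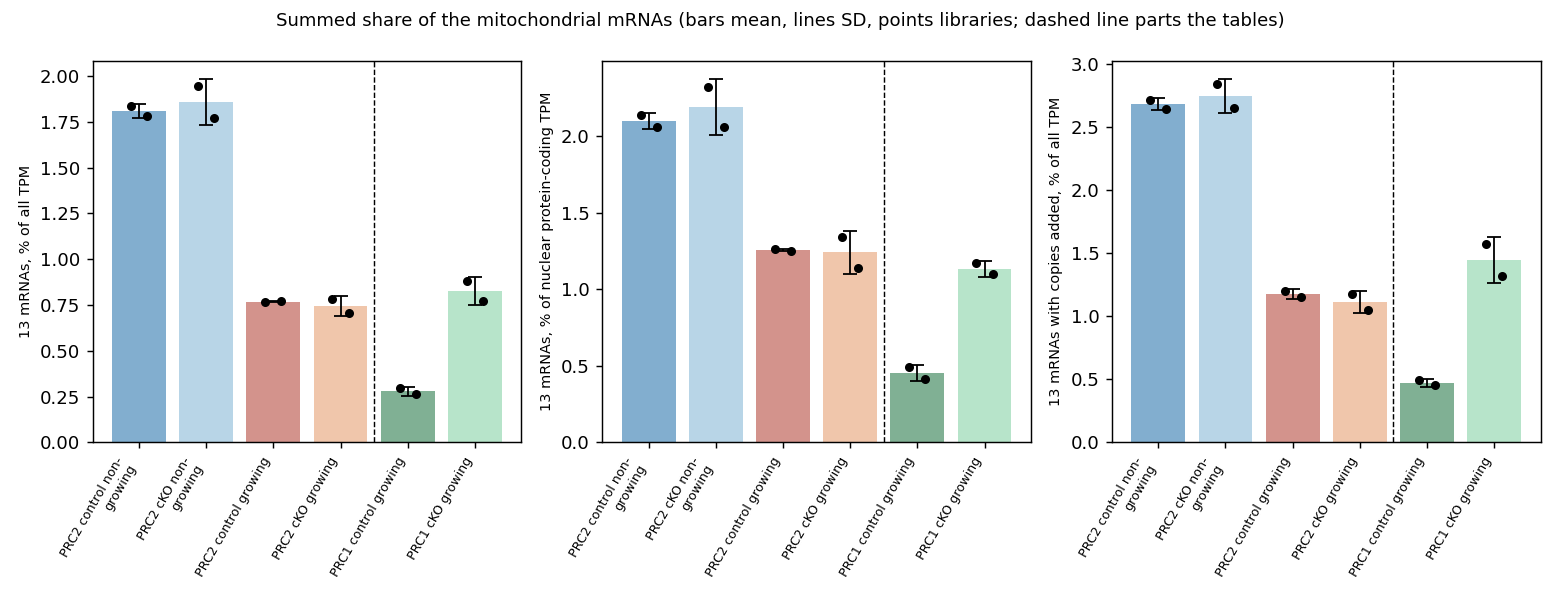
Bars give the mean and lines the SD of the 2 libraries (points) for the summed share of the 13 mRNAs, as a percent of all TPM, of nuclear protein-coding TPM, and of all TPM with the chromosome 1 copies added. Growing PRC2 oocytes were at 0.768% and 0.745% of all TPM, below the non-growing groups at 1.81% and 1.86%, and the group labelled PRC1 cKO at 0.827% was above its control at 0.279%.

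Loss of Eed was examined at each stage. Of the mitochondrial RNAs, mt-Nd3 alone passed between PRC2 cKO and control oocytes as listed, in opposite directions at the 2 stages. The summed mRNA share had a ratio of cKO to control of 1.03 ± 0.0718 in non-growing and 0.970 ± 0.0711 in growing oocytes (SD from the libraries). With copies added the ratios were 1.02 ± 0.0527 and 0.946 ± 0.0794. As listed, the control libraries lay within the range of the cKO libraries at both stages. With copies added, control non-growing replicate 2 (2.64%) lay below the cKO range of 2.65% to 2.84%. Control growing replicate 1 (1.20%) then lay above the cKO range of 1.05% to 1.17%. In non-growing oocytes 0.311% of all tested genes passed, 0.113% as higher and 0.198% as lower, and 1 of 15 members did, mt-Nd3 as lower. In growing oocytes 0.17% passed, 0.12% as higher and 0.0495% as lower, and 1 of 15 members did, mt-Nd3 as higher. The median change of the 13 mRNAs was 0.05 in non-growing (all genes -0.09) and 0.03 in growing oocytes (all genes 0.08). The 7 mRNAs without a chromosome 1 copy listed above 0 changed by -0.04 to 0.15 in non-growing oocytes. In growing oocytes they changed by -0.12 to 0.18, with an SE of 0.07 to 0.18 at both stages. mt-Cytb, for instance, stood at 5296 and 5182 TPM in control against 5197 and 4970 TPM in cKO non-growing oocytes, and mt-Nd1 at 333.1 and 333.09 TPM against 350.45 and 331.28 TPM in growing ones. mt-Co1 changed by 0.15 and -0.03, mt-Co2 by -0.14 and -0.05, mt-Atp6 by 0.36 and -0.11 and mt-Co3 by 0.06 and 0.69 in non-growing and growing oocytes, and none of these passed. mt-Rnr1 changed by 0.05 and 0.06 and mt-Rnr2 by -0.02 and -0.07. These comparisons use the same libraries as the growth comparisons.

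In non-growing oocytes mt-Nd3 was listed at 6.93 and 13.02 TPM in the control and at 0 in both cKO libraries (limma adjusted p = 0.0285). The growing control libraries had it at 0 and the growing cKO libraries at 6.93 and 14.72 TPM (limma adjusted p = 0.0348). The test of the difference between these effects, in which 0.0989% of all genes passed (0.0919% as higher, 0.00707% as lower), gave a limma adjusted p of 0.0148. The groups did not overlap at either stage, and no fold is given against libraries at 0. Its copy Gm28438 stood at 50.62 and 48.58 TPM in the control against 71.26 and 63.93 TPM in the cKO of non-growing oocytes, and at 28.87 and 17.7 TPM against 25.17 and 9.72 TPM in growing ones. Gene and copy together gave 57.55 and 61.6 TPM against 71.26 and 63.93 TPM in non-growing, and 28.87 and 17.7 TPM against 32.1 and 24.44 TPM in growing oocytes. With the copies added no member passed in either comparison or in their difference by limma, and none had an unadjusted p under 0.05. The limma adjusted p of mt-Nd3 was then 0.721, 0.6615 and 0.871, with log2 fold changes of 0.18 (SE 0.23), 0.30 (SE 0.23) and 0.12 (SE 0.33). As listed, leaving out 1 of the 8 libraries at a time ended the call in 6 of 8 cases in non-growing and 7 of 8 in growing oocytes, and in 4 of 8 for the difference. Among 534 models of nearly the same length as mt-Nd3 (348 bases), the most frequent value between 0 and 1 TPM was 0.23 to 0.3 TPM in the 8 libraries. Where mt-Nd3 was listed above 0 it was 26.7 to 58.9 times that value.

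mt-Nd4l, also a complex I subunit, did not pass in either comparison, and its copy went the other way. It was listed at 0 and 14.89 TPM in the control against 65.58 and 72.89 TPM in the cKO of growing oocytes (limma adjusted p = 0.348), and passed without control growing replicate 2. No size is given, since 1 control library is at 0. Gm10222 stood at 120.61 and 110.39 TPM in the same control and at 57.37 and 44.79 TPM in the same cKO libraries. Their sums were 120.61, 125.28, 122.95 and 117.68 TPM, and the change of the sum was -0.03 (SE 0.08, limma adjusted p = 0.8975).

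**Figure D4:**
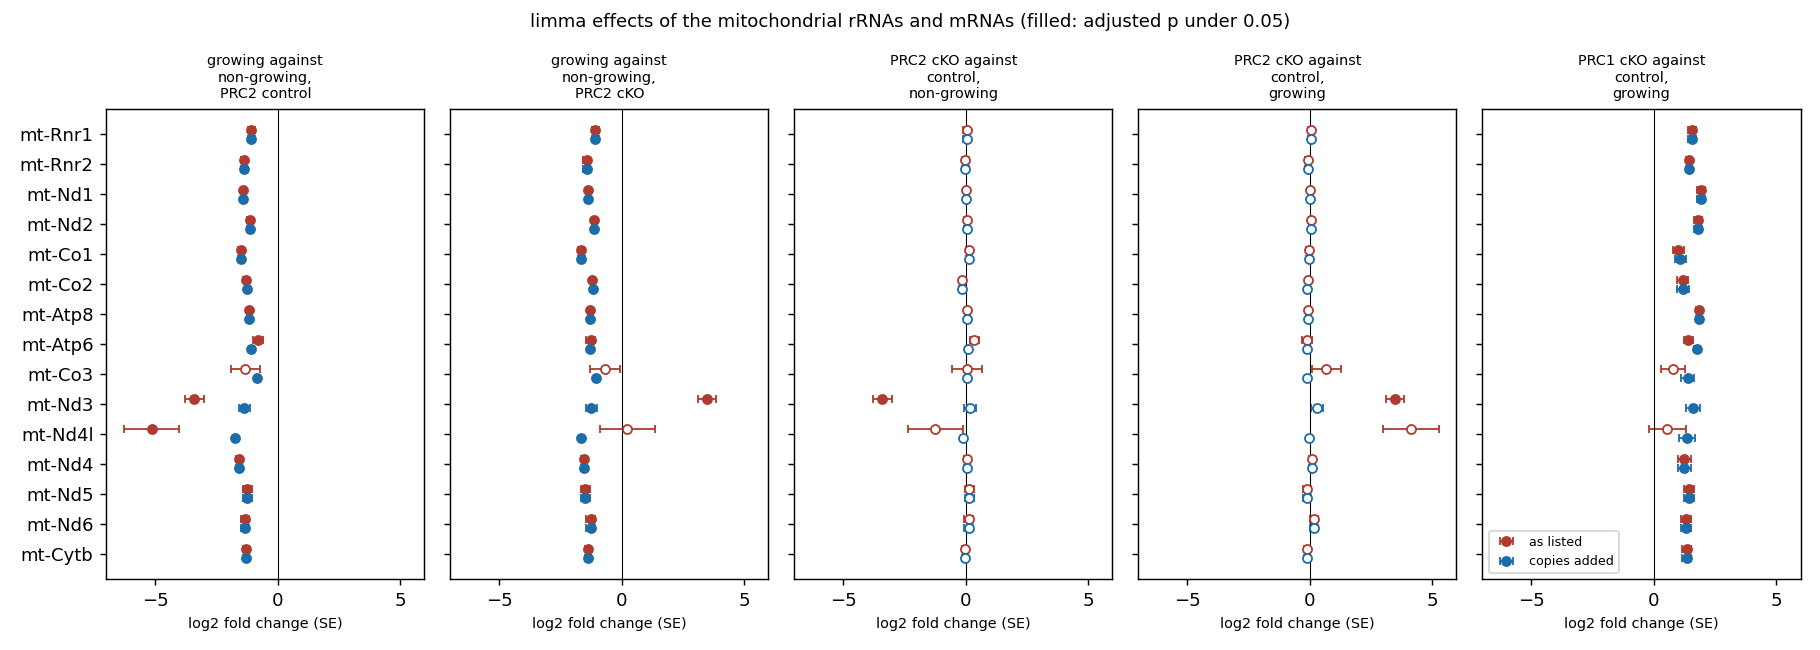
Points give the limma log2 fold change with its SE for the 2 rRNAs and 13 mRNAs in 5 comparisons, as listed (red) and with the chromosome 1 copies added (blue), filled where the adjusted p is under 0.05. With the copies added, mt-Nd4l (-1.74) and mt-Co3 (-0.85) have the largest and smallest fall with growth in control oocytes, and mt-Nd3 as listed in the PRC1 panel was not tested.

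In growing oocytes of the PRC1 table the mitochondrial RNAs were higher in the libraries labelled cKO, in which Rnf2 was not lower, than in the control. The summed mRNA share was 0.296% and 0.261% in control and 0.879% and 0.774% in cKO libraries, a ratio of 2.97 ± 0.374 (SD from the libraries), or 3.06 ± 0.434 with copies added. Here 47.8% of all tested genes passed, 41.3% as higher and 6.45% as lower. Of the 26 members tested, 17 passed as higher and none as lower: 10 of 12 mRNAs, both rRNAs and 5 of 12 tRNAs. Among these tRNAs, mt-Tm and mt-Tw met the minimum for testing only through the cKO libraries, and without them 15 of 24 members and 3 of 10 tRNAs passed. The median change of the 12 mRNAs was 1.33, beside 0.55 over all genes. With copies added, all 13 mRNAs passed as higher, by 1.09 to 1.94.

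mt-Nd1 had the largest change of the mRNAs as listed. It stood at 215.77 and 183.57 TPM in control against 839.49 and 700.57 TPM in cKO libraries (1.94 on the log2 scale, SE 0.16, limma adjusted p = 0.00237). mt-Atp8 went from 1050 and 1020 TPM to 3876 and 3698 TPM (1.87, SE 0.12, limma adjusted p = 0.00209). mt-Cytb went from 616.08 and 440.04 TPM to 1352 and 1298 TPM (1.35, SE 0.19, limma adjusted p = 0.00583). The groups did not overlap for any of these. mt-Nd2 rose by 1.80, mt-Nd5 by 1.44, mt-Atp6 by 1.42, mt-Nd6 by 1.32, mt-Nd4 by 1.25, mt-Co2 by 1.18 and mt-Co1 by 1.01 on the log2 scale. mt-Co1 and mt-Nd4 did not pass without cKO replicate 1 or without control replicate 2, nor did mt-Co2 without either cKO library. mt-Co3 and mt-Nd4l did not pass. mt-Co3 stood at 170.64 and 145.7 TPM in control against 459.53 and 160.09 TPM in cKO libraries, where the lower cKO value lies within the control range (0.78, SE 0.49, limma adjusted p = 0.242). mt-Nd4l stood at 10.86 and 43.09 TPM against 53.36 and 19.61 TPM (0.55, SE 0.75, limma adjusted p = 0.575). mt-Nd3 was at 0 in 3 libraries and 12.96 TPM in cKO replicate 1, and its sum with Gm28438 was 28.41 and 37.7 TPM in control against 129.72 and 79.03 TPM in cKO libraries. With copies added the changes of mt-Co3, mt-Nd4l and mt-Nd3 were 1.39, 1.35 and 1.60, with limma adjusted p-values of 0.0125, 0.0245 and 0.0105.

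mt-Rnr2 stood at 225.12 and 233.86 TPM in PRC1 control against 623.6 and 640.95 TPM in cKO libraries (1.46, SE 0.12, limma adjusted p = 0.00231). mt-Rnr1 stood at 29.42 and 35.59 TPM against 94.54 and 100.64 TPM (1.56, SE 0.16, limma adjusted p = 0.00309). The make-up of the mRNA sum also differed between the PRC1 groups, as a description without a test. mt-Atp8 was 37.3% ± 2.53 of the sum in control and 45.9% ± 2.61 in cKO, and mt-Nd1 7.16% ± 0.186 and 9.30% ± 0.351 (SD, n = 2). mt-Co1 was 7.20% ± 0.906 in control and 4.90% ± 0.726 in cKO, and mt-Cytb 18.8% ± 2.81 and 16.1% ± 0.984. With copies added mt-Atp8 was 21.9% ± 1.00 of the sum in control and 26.3% ± 2.43 in cKO, and mt-Cytb 11.1% ± 1.90 and 9.22% ± 0.890. For mt-Cytb the groups then overlapped, at 12.4% and 9.76% in control against 8.59% and 9.85% in cKO libraries. As listed, mt-Cytb was nearly level in control replicate 2 (16.85%) and cKO replicate 2 (16.77%).

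Other shares moved with the PRC1 result too. TEC models had a ratio of cKO to control of 0.597 ± 0.128 and nuclear protein-coding TPM of 1.18 ± 0.0652. Against nuclear protein-coding TPM the ratio of the summed mRNA share was 2.51 ± 0.322. Trimmed-mean scaling moved the median of all genes from 0.55 to 0.02 and left 12 members higher and none lower, with a median of 0.71 for the mRNAs. mt-Co1, mt-Co2, mt-Nd4, mt-Cytb and mt-Ts1 no longer passed there. The split of all passing genes was 6176 higher and 964 lower as listed, 3488 and 2946 under that scaling, 2722 and 2636 under quantile normalization and 5045 and 1515 when scaled to nuclear protein-coding genes. Summed markers of granulosa cells, stroma and theca, immune cells and red blood cells were higher in the cKO libraries. Those of endothelium overlapped, at 5.81 to 7.19 TPM in control and 5.93 to 9.38 TPM in cKO. Summed granulosa markers (10 genes, none at 0 in every library) were 9.87 to 12.63 TPM in control and 26.38 to 39.23 TPM in cKO, stroma and theca markers (8 genes) 0.36 to 0.75 and 2.32 to 4.74 TPM, and red blood cell markers (5 genes) 0.25 to 0.85 and 2.38 to 2.4 TPM. Summed oocyte markers were 20206 to 21722 TPM in control and 14512 to 15146 TPM in cKO. The genes of that sum did not all fall. Zp3 stood at 6384.99 and 6487.14 TPM in control against 4458.3 and 4594.61 TPM in cKO, and Nlrp5 was lower too. Ddx4 stood at 145.56 and 160.17 TPM against 258.7 and 241.57 TPM, and Dazl at 244.61 and 287.56 TPM against 501.87 and 355.77 TPM. The part of these in the mitochondrial result was not tested. Without the library labelled PRC1 cKO replicate 1, 14 of the 26 members passed, and without the other libraries in turn 16 to 19.

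The tRNAs were detected mainly in the PRC1 table. In the PRC2 table mt-Tl1, a leucine tRNA, was listed at 40.83 TPM in control non-growing replicate 1, and every other tRNA value was 0. Of the 22 tRNAs, 15 were above 0 in at least 1 PRC1 library, all 8 of the minus strand and 7 of the 14 of the plus strand. Gene models shorter than 75 bases, all biotypes together, were above 0 in 2 of 986 cases in the PRC2 and 47 of 986 in the PRC1 table, and in 33 of 965 in the PRC1 table without the members. The tables thus differ in short RNAs as a whole, and the tRNA values of one are not set against the other. Some of the tRNAs whose values are given below are shown 5′ to 3′ from GENCODE vM21, with bases that overlap a neighbouring mitochondrial gene in capitals: mt-Ts1 (MT:6870-6938, minus strand), mt-Te (MT:14071-14139, minus), mt-Tq (MT:3772-3842, minus), mt-Tm (MT:3845-3913, plus), mt-Ta (MT:5018-5086, minus) and mt-Tl1 (MT:2676-2750, plus).
mt-Ts1: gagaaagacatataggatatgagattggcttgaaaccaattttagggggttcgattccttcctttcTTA
mt-Te: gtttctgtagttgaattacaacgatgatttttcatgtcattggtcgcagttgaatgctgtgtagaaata
mt-Tq: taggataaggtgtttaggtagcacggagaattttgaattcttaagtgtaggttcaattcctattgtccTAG
mt-Tm: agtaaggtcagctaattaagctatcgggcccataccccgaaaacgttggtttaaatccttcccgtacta
mt-Ta: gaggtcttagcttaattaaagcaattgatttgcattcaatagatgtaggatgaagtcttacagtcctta
mt-Tl1: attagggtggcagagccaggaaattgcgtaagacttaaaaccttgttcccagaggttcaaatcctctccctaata

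mt-Ts1, a serine tRNA, was the most abundant tRNA, at 250.1 and 278.15 TPM in PRC1 control against 479.94 and 470.53 TPM in cKO libraries. It rose by 0.85 (SE 0.13, limma adjusted p = 0.00628) and the groups did not overlap, though it did not pass without control replicate 1. Its last 3 bases overlap mt-Co1 on the other strand. A TPM value does not tell a cut tRNA from a longer precursor that holds its sequence. Whether reads of both strands were kept apart was not examined here, so the tRNA values are not levels of mature tRNAs alone. mt-Te, the glutamate tRNA, stood at 13.16 and 15.45 TPM against 68.56 and 75.89 TPM (2.26, SE 0.17, limma adjusted p = 0.00219). mt-Tq, the glutamine tRNA, stood at 11.81 and 13.87 TPM against 46.16 and 80.65 TPM (2.17, SE 0.30, limma adjusted p = 0.00542). In control replicate 2 the 13.87 TPM of mt-Tq was the lowest tRNA value above 0. It was also the value of mt-Tn, which has the same length of 71 bases. The changes of mt-Te and mt-Tq thus rest on low control values, and how many reads these hold is not known. mt-Ts1, mt-Te and mt-Tq lie on the minus strand. mt-Tm (methionine) and mt-Tw (tryptophan) were listed at 0 in both control libraries and at 34.28 and 45.54 TPM and 9.59 and 34.45 TPM in the cKO libraries. They were tested only because of the cKO libraries in which they are high, so no p and no fold are given.

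The other tRNAs tested did not pass. mt-Ta (alanine) stood at 39.49 and 30.91 TPM in control against 34.28 and 45.54 TPM in cKO libraries, the last 2 values being the same as those of mt-Tm, which has the same length of 69 bases. mt-Tn (asparagine) stood at 23.62 and 13.87 TPM against 30.78 and 40.33 TPM (limma adjusted p = 0.0556), and mt-Tc (cysteine) at 31.29 and 0 TPM against 71.2 and 73.56 TPM (limma adjusted p = 0.110). mt-Tl1 stood at 9.63 and 22.65 TPM against 12.57 and 10.69 TPM. mt-Tt (threonine), mt-Tp (proline) and mt-Ty (tyrosine) were each at 0 in 1 control library, and their limma adjusted p-values were 0.898, 0.221 and 0.999. mt-Tk, mt-Tg and mt-Tl2 were above 0 in 1 cKO library each, at 10.8, 9.06 and 13.44 TPM. The summed tRNA TPM was 408.6 and 392.21 in control and 826.4 and 942.3 in cKO libraries, a ratio of 2.21 ± 0.215. mt-Ts1 alone gave a mean of 264.1 TPM of this sum in control and 475.2 TPM in cKO. The sum also holds mt-Tm, mt-Tw, mt-Tk, mt-Tg and mt-Tl2, which were at 0 in both control libraries. The ratio thus does not describe the tRNAs one by one.

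**Figure D5:**
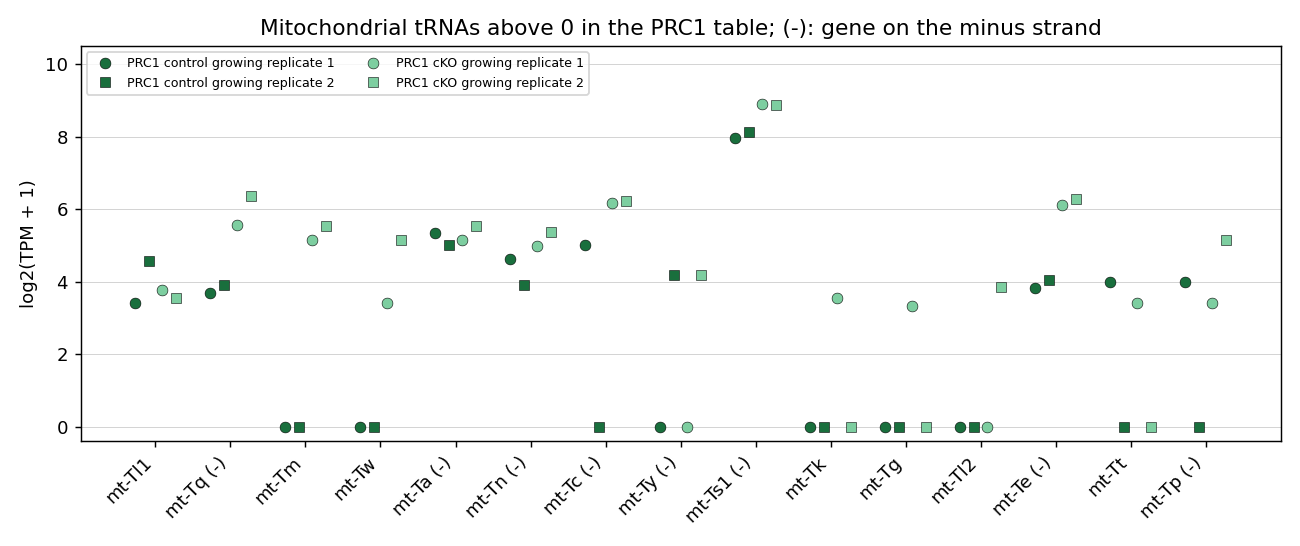
Points give log2(TPM + 1) of the 15 tRNAs above 0 in the 4 PRC1 libraries, dark for control and light for cKO, with circles for replicate 1 and squares for replicate 2. mt-Ts1 is highest in all 4 libraries, and mt-Tm and mt-Tw are at 0 in both control libraries.

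Nuclear genes that serve the mitochondrial genome were listed in 5 groups: transcription, DNA replication and upkeep, tRNA cutting and modification, RNA stability and decay, and translation factors, 67 genes in all and all tested. With growth in control oocytes 44 fell and 7 rose, 65.7% and 10.4% of the list beside 54% and 16.6% of all genes, with a median of -0.86 beside -0.67. In the transcription group 4 of 10 rose and 4 fell, with a median of 0.21. Mrm3, a methyltransferase of mitochondrial rRNA, fell from 36.9 ± 0.247 to 8.23 ± 0.544 TPM, and Slirp, which stabilises mitochondrial mRNAs, from 158.1 ± 16.4 to 43.1 ± 0.665 TPM (SD, n = 2). Hsd17b10, a subunit of the enzyme that cuts tRNAs at their 5′ end, fell from 712.1 ± 20.6 to 266.5 ± 21.1 TPM. Their log2 fold changes were -2.04, -1.85 and -1.42, with limma adjusted p-values of 2e-05, 3e-05 and 5e-05. Ptcd2, Rexo2 and Mgme1, factors of RNA processing, RNA decay and DNA upkeep, fell by 1.76, 1.84 and 1.69 on the log2 scale. In cKO oocytes 33 fell and 9 rose with growth, 49.3% and 13.4% beside 46% and 20.1% of all genes, with a median of -0.48 beside -0.45. Mrm3, Ptcd2, Hsd17b10, Rexo2, Slirp and Ssbp1, which binds single-stranded mitochondrial DNA, fell there by 1.66 to 2.23 on the log2 scale.

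None of the 67 factors and none of 72 nuclear-encoded subunits of complexes I, III, IV and V passed in PRC2 cKO against control at either stage by limma. Of all tested genes, 0.311% passed in non-growing and 0.17% in growing oocytes. At an unadjusted p under 0.05 there were 9 factors and 8 subunits in non-growing and 2 factors and 1 subunit in growing oocytes. The share of all genes under that p is not given here, so these counts are not read as a result. The factors of smallest p were Oxa1l, an insertase of the inner membrane, in non-growing (21.4 ± 1.32 TPM in control and 13.6 ± 1.58 TPM in cKO, SD, n = 2) and Dguok, a deoxynucleoside kinase, in growing oocytes (40.6 ± 1.49 and 34.2 ± 1.499 TPM). Their limma adjusted p-values were 0.161 and 0.486. Tk2 and Trnt1 in non-growing oocytes had limma adjusted p-values of 0.214 and 0.239, and Mtif2 and Pus1 in growing oocytes 0.501 and 0.519. For the difference between the stages Tk2, Trnt1 and Fastkd3 had the smallest p, each with a limma adjusted p of 0.305.

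The nuclear-encoded subunits fell with growth too. In control oocytes 70 of 72 passed as lower (97.2%, beside 54% of all genes) and 1 as higher, with a median of -1.20 beside -0.67. In cKO oocytes 71 passed as lower (98.6%, beside 46%) and 1 as higher, with a median of -1.38 beside -0.45. Uqcrc1, a core subunit of complex III, went from 712.9 ± 33.1 to 216.2 ± 5.94 TPM in control oocytes (SD, n = 2). Cox8a, a complex IV subunit, went from 448.0 ± 13.7 to 140.6 ± 1.94 TPM. The subunit that rose was Ndufb1-ps, listed with complex I although its symbol marks a pseudogene, from 124.5 ± 14.6 to 244.5 ± 15.6 TPM.

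In the libraries labelled PRC1 cKO 22 factors passed as higher and 4 as lower, 32.8% and 6.0% of the list beside 41.3% and 6.45% of all genes, with a median of 0.41 beside 0.55. Top1mt, a mitochondrial DNA topoisomerase, rose from 1.28 ± 0.509 TPM in control to 22.2 ± 3.61 TPM in cKO libraries (3.36, SE 0.27, limma adjusted p = 0.00232). Polrmt, the mitochondrial RNA polymerase, went the other way, from 86.5 ± 3.58 TPM in control to 40.1 ± 6.16 TPM in cKO libraries (-1.10, SE 0.17, limma adjusted p = 0.00671). Hsd17b10, Mrm3, Trmt5 and Ptcd2 rose by 1.04, 1.84, 1.09 and 1.14 on the log2 scale. Of the 72 nuclear subunits 64 passed as higher (88.9%, beside 41.3% of all genes) and 1 as lower, with a median of 0.87 beside 0.55. Ndufa1, Ndufa3 and Ndufc1, accessory subunits of complex I, rose by 1.75, 1.69 and 1.66, and Ndufb1-ps fell by 0.74.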

How the data were processed

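Libraries were grouped by their titles into 6 groups of 2. The labels' protocols describe a micro-scale RNA kit, a low-input library kit and paired reads. The authors deposited TPM in 2 tables, one per mutant. RSEM 1.3.3, Subread 2.0.3, HISAT2, SAMtools and Trim Galore 0.6.10 are named with GRCm38 in the submitters' processing notes. The tool that gave the TPM and the handling of reads with several matches were not given in the sources used here. TPM keep no depth, so no count test was possible and precision rests on the 2 libraries per group.

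The log2(TPM + 1) values entered limma 3.58.1 (R 4.3.3, trend, all groups of a table together, no covariate, two-sided), for genes with at least 1 TPM in at least 2 libraries, 14153 in the PRC2 and 14941 in the PRC1 table. The fit was also run on simulated data with independent normal noise on the log2 scale. Those data had no reads divided between gene and copy, so they do not test the genes with copies. Matches between mitochondrial and other transcripts were found with blastn 2.17.0 among GENCODE vM21 transcripts, since no genome sequence was used here. Copies that cover part of a gene were added in proportion to the length they cover.

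Members and lists were chosen with earlier results of these data known. All mRNAs, rRNAs and tested tRNAs are named. Up to 6 factors of smallest p that passed (or 3 where fewer passed), and up to 3 subunits per direction, are named. One gene that this rule selects is not reported here. Alternatives were the pseudocount (0.1 and 5), no filter, 3 scalings, each library left out, no trend, robust fitting, a block on the replicate number, and only the 2 groups compared. The same-number pairing was checked by the correlation of deviations from the group means (see the closing section). Adding the copies and crossing the replicate numbers of the PRC1 table were chosen after seeing the data.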

Additional observations from a re-analysis of the deposited data

Results flagged for a closer look

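mt-Nd3 differed in its PRC2 cKO effect between the stages by a test of the difference itself (limma adjusted p = 0.0148). It was listed at 6.93 and 13.02 TPM in control and 0 in both cKO libraries of non-growing oocytes, and at 0 in both control and 6.93 and 14.72 TPM in the cKO libraries of growing oocytes. With its chromosome 1 copy Gm28438 added, the log2 difference was 0.12 (SE 0.33, limma adjusted p = 0.871). Over all alternatives the adjusted p ranged from 0.00244 to 0.871.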

How the results depend on the processing

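Direction and call held for most named genes and settings. Of the rest, 52 single-gene results no longer passed, 17 newly passed and 3 changed sign where the listed or the alternative result passed. These sign changes came with the chromosome 1 copies added: mt-Nd3 to 0.18 (non-growing cKO against control), and mt-Nd3 and mt-Nd4l to -1.24 and -1.65 (growth in PRC2 cKO). The value of 0.18 did not pass (limma adjusted p = 0.721). mt-Nd4l had not passed as listed (limma adjusted p = 0.867), so mt-Nd3 with growth alone passed in both directions. For PRC2 cKO in non-growing oocytes, 44 genes became 91 with no filter, 10 with only the 2 groups compared, 87 with a pseudocount of 5, 29 with trimmed-mean scaling and 14 to 45 without 1 library (14 without control non-growing replicate 2). The 1 mitochondrial gene became 0 with copies added, no filter, the 2 groups alone or a pseudocount of 5, and 0 to 1 without 1 library. In growing oocytes 24 genes became 50 with no filter, 12 with no trend, 1 with only the 2 groups compared and 10 to 35 without 1 library (10 without either control non-growing library). The 1 mitochondrial gene became 0 with copies added, no filter, no trend, the 2 groups alone or a pseudocount of 5, and 0 to 1 without 1 library. For the difference between stages, 14 genes became 7 with a pseudocount of 5 and 3 to 842 without 1 library (842 without PRC2 cKO growing replicate 1, 3 without PRC2 cKO non-growing replicate 1). Its 1 mitochondrial gene became 0 with copies added or a pseudocount of 5, and 0 to 1 without 1 library. With growth in control oocytes, 9 mitochondrial genes passed under trimmed-mean scaling, and the share ratio was 0.599 of nuclear protein-coding TPM and 0.438 with copies added. Against nuclear protein-coding TPM it was 0.566 for growth in cKO and 2.51 for the libraries labelled PRC1 cKO. For the libraries labelled PRC1 cKO, 2953 to 6390 genes passed without 1 library (2953 without control replicate 1, 4400 without cKO replicate 1, 4223 without control replicate 2), beside 7140. Where leaving out a library left 1 in its group, that library was assumed to vary like the others. The cause of these moves was not tested.

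Deviations of same-numbered libraries had correlations of -0.03 to 0.26 among the PRC2 groups and -0.27 between the PRC1 groups. The highest was between the non-growing and growing PRC2 cKO libraries. These values do not show whether libraries of the same or of different numbers shared animals or processing. With the replicate block, 20 genes passed for PRC2 cKO in non-growing oocytes, 16 in growing oocytes, 5 for their difference, 10171 and 9543 for growth in control and cKO, and 5094 for the PRC1 comparison. Crossing the PRC1 numbers, chosen after seeing the data, gave 9501 genes. TPM carry no depth, so how far depth limits the low values of mt-Nd3, mt-Nd4l and the tRNAs cannot be given.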
